A study of Mus musculus with 4 samples.

Results

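Amino acid transporter genes were examined in mouse regulatory T cells, which hold other lymphocytes in check. The genes were chosen by symbol alone, as all members of the solute carrier families Slc1, Slc3, Slc6, Slc7, Slc36, Slc38 and Slc43, without pseudogenes and opposite-strand transcripts. This gave 63 genes of the 50600 in the files, and all 63 are annotated as protein coding. RNA was sequenced from 4 biosamples of primary cells of the C57BL/6NJ strain, which form 1 group with no other cell type or treatment beside it. They share 1 donor record, their age is given as unknown and their sex as not collected. A protocol for differentiating CD4+ T cells is linked to each, and the names of the aligned files in the headers hold the words activated and 48h. Whether they came from separate animals or cultures is not stated, so a p-value here reflects the spread among these samples alone, part of which may be technical. The assay is named as total RNA, although the linked library protocol is named for polyadenylated RNA.

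Amino acids cross membranes through carriers that differ in substrate and in coupling. The heteromeric exchangers pair a heavy chain, Slc3a2 or Slc3a1, with a light chain of the Slc7 family that carries out the transport. Slc1 and Slc38 members are driven mainly by sodium, Slc36 members by protons, and Slc6 members carry neurotransmitters, taurine, creatine and neutral amino acids with sodium and chloride. T cells are known to raise their uptake of glutamine, leucine and arginine after activation, when Slc7a5 with Slc3a2 and the glutamine carrier Slc1a5 become prominent, and imported leucine feeds the growth kinase mTORC1.

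The libraries held 43821767 to 73819468 counts. All 6 regulatory T cell markers and all 5 general T cell markers on the lists used were expressed, with Foxp3 at 289 ± 23.5 TPM (counts per exon length, scaled to the same sum in every library; mean ± SD, n = 4 here and below) and Cd4 at 611 ± 25.4. Of the 31 markers of other cell types, 2 were expressed, Cd79b of B cells at 3.11 ± 0.466 and Adgre1 of macrophages at 1.30 ± 0.328. The summed level of the 6 macrophage and dendritic cell markers was 1.15 to 2.06 TPM and that of the 5 B cell markers 3.14 to 4.01, while Lyz2, S100a8 and Hba-a1 had 0 counts. The libraries differed in sex-linked genes. Xist exceeded 100 TPM only in replicates 1 and 2, and the Y-linked Ddx3y exceeded 1 TPM only in replicates 3 and 4, at 45.1 and 45.0. Replicates 1 and 2 are thus not technical repeats of replicates 3 and 4. No groups were formed from this. In bulk RNA, fewer cells of a type and less RNA per cell cannot be told apart.

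The cells expressed a minority of the family at widely different levels. A gene was called expressed if no library had it below 1 TPM, and 22 of the 63 members (34.9%) met this, against 47.2% of all protein-coding genes and 22.9% of all genes. Of the 278 other protein-coding Slc genes, 137 (49.3%) were expressed. Another 21 members (33.3%) had 0 counts in every library, against 33.7% of protein-coding genes, and 20 had some counts without being expressed. At the upper end, 9 members (14.3%) averaged above 100 TPM, against 9.66% of protein-coding genes. Among the other Slc genes, Slc25a5 alone, named after its value was seen, lay above Slc7a5. The median over all 63 members was 0.0632 TPM, compared with 0.691 over all protein-coding genes. Over the 22 expressed members it was 42.1, compared with 33.7 over expressed protein-coding genes.

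Transcripts of the family were concentrated in few genes. The members summed to 2787, 2761, 2824 and 2907 TPM in replicates 1 to 4, or 0.282 ± 0.00637% of all TPM. Slc7a5 alone held 32.6 ± 0.589% of this sum, the 3 highest members 56.6 ± 0.748% and the 10 highest 93.0 ± 0.089%. By transport system, the light chains of the heteromeric exchangers came first with 36.5 ± 0.563% of the members' TPM. The sodium-coupled Slc38 carriers held 17.9 ± 0.626%, the ASC carriers Slc1a4 and Slc1a5 14.2 ± 0.227% and the heavy chains 11.6 ± 0.345%. Smaller shares belonged to the cationic transporters at 6.50 ± 0.233%, the Slc6 carriers of taurine, creatine, glycine and related substrates at 6.33 ± 0.296% and the Slc43 family at 5.94 ± 0.104%. The proton-coupled Slc36 family held 0.932 ± 0.0505%.

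**Figure D1:**
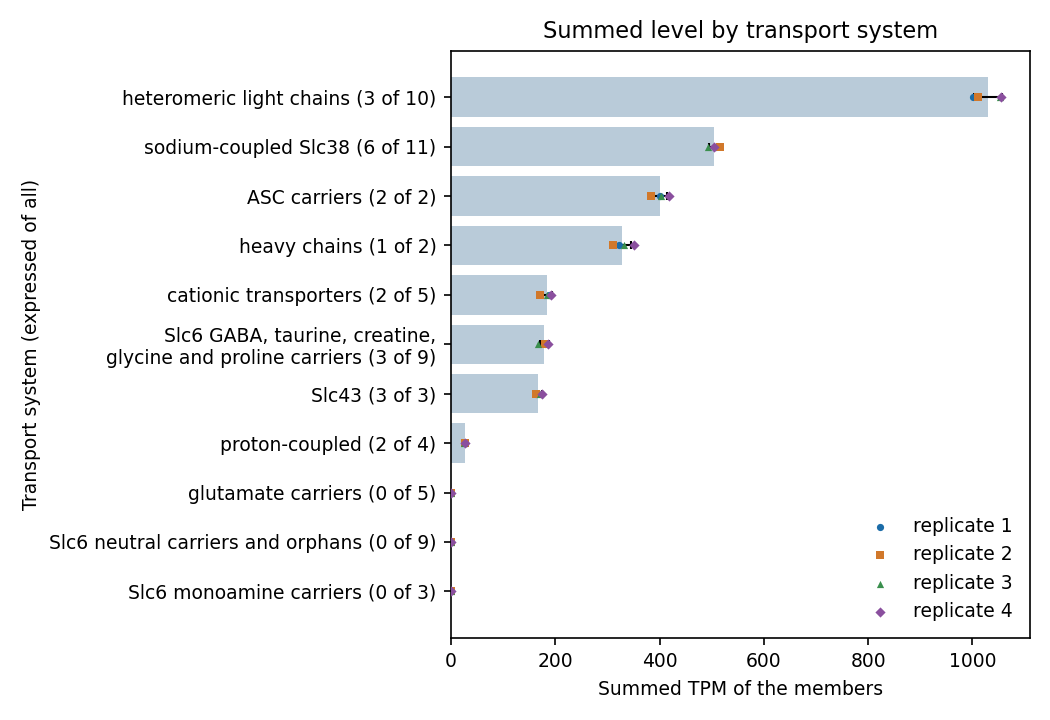
Summed TPM of the members of each transport system, with bars for the mean of the 4 libraries, error bars for the SD and points for single libraries. The heteromeric light chains lie at 1001 to 1054 in the 4 libraries, above every other system, and the 3 lowest systems hold no expressed member.

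Slc7a5, the light chain that exchanges leucine and other large neutral amino acids, was the most abundant member (ENSMUSG00000040010.10, chromosome 8, 121881150 to 121907694 of mm10, minus strand). It stood at 892, 901, 944 and 944 TPM in replicates 1 to 4, and ranked 110 among the 11593 expressed genes. Its heavy chain Slc3a2, the glycoprotein that brings Slc7 light chains to the cell surface (chromosome 19, 8706882 to 8723369), stood at 321, 310.4, 331 and 351 TPM. The library values of the 2 genes did not overlap. Slc7a5 was 2.81 ± 0.0903 times as abundant as Slc3a2 per exon length. This SD does not cover the choice of length. With the length of the longest transcript, Slc7a5 averaged 705 TPM and Slc3a2 299.

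The 6 light chains that pair with Slc3a2 summed to 1030 ± 27.5 TPM, of which Slc7a5 made up 89.4 ± 0.317%. Their sum exceeded Slc3a2 by 3.01 to 3.26 times in the 4 libraries, a log2 ratio of heavy chain to light chains of -1.65 ± 0.05. Light chains were higher in 4 of 4 libraries, and the log2 ratio was -1.42 with the length of the longest transcript. Related transporters were compared in 10 such pairs by flipping the signs of the 4 log2 ratios (exact permutation, two-sided). In 9 pairs all libraries pointed the same way, which only 2 of the 16 sign patterns do, the smallest p that 4 libraries allow. After Benjamini-Hochberg adjustment over the 10 pairs the exact p was 0.139 for these 9 and 0.25 for the other, so none passed 0.05 and none could have.

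Slc7a6, which exchanges arginine and lysine against neutral amino acids, was the next light chain at 107, 107, 106 and 108 TPM, the smallest coefficient of variation among the expressed members. Its close relative Slc7a7, a cationic and neutral exchanger known from epithelia and macrophages, lay near the threshold at 1.54, 1.43, 1.35 and 1.13. The difference of Slc7a6 from Slc7a7 was 79.0-fold on average and 69.5 to 95.4-fold in single libraries, so the levels did not overlap (exact sign-flip, adjusted p = 0.139). The level of Slc7a7 rests on 56 to 96 counts per library.

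Slc7a11, the light chain that imports cystine in exchange for glutamate and so feeds glutathione synthesis, fell just outside the expression threshold. It stood at 0.955, 0.729, 0.820 and 0.763 TPM, from 160 to 247 counts, and no library reached 1. Slc7a8, a large neutral exchanger related to Slc7a5, lay at 0.334, 0.316, 0.344 and 0.263. Slc7a5 exceeded it 2942-fold on average, and 2671 to 3586-fold in single libraries (exact sign-flip, adjusted p = 0.139). Slc7a8 rests on 16 to 30 counts per library, so the size of this fold is uncertain. With 1 added to each TPM, the log2 ratio was 9.45 in place of 11.52. Among the remaining light chains, Slc7a10 had 3 counts in replicate 1 and 0 elsewhere, Slc7a13 had 2 counts in replicate 3, and Slc7a9, Slc7a12 and Slc7a15 had 0 counts. Slc3a1, the heavy chain that pairs with Slc7a9 in kidney and intestine, had 0, 6, 5 and 8 counts, a mean of 0.120 TPM.

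**Figure D2:**
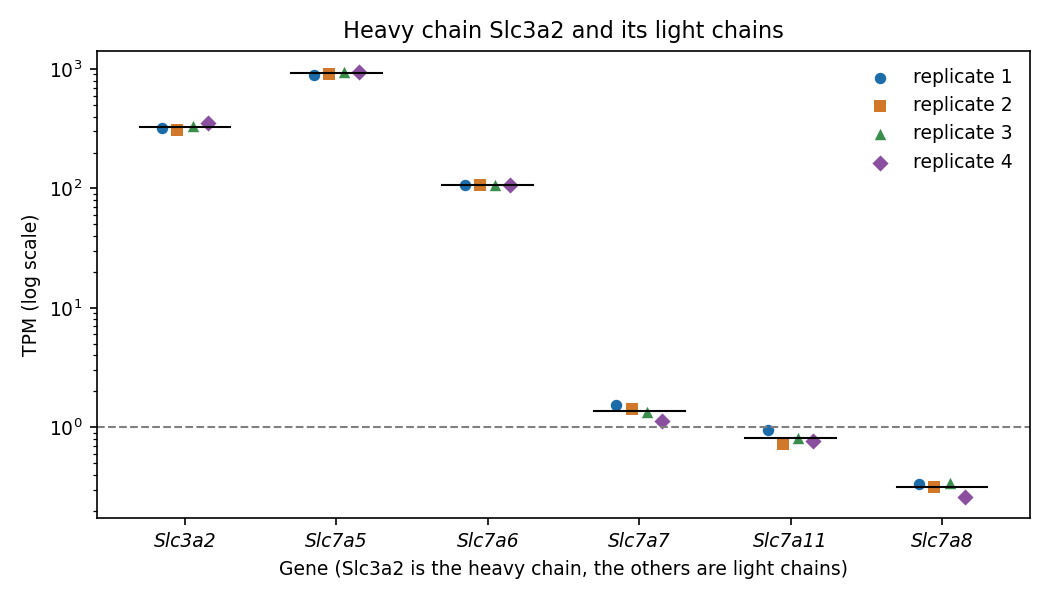
TPM on a log axis of the heavy chain Slc3a2 and 5 of its light chains in each of the 4 libraries, with a line at the mean of each gene and a dashed line at the expression threshold of 1. Slc7a5 at 892 to 944 lies above Slc3a2 in every library, and Slc7a11 and Slc7a8 lie below the threshold in all 4.

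The stress factor Atf4 acts with C/EBP proteins on a composite DNA element and is known to induce Slc7a11 and other transporters when amino acids are short. Atf4 itself was abundant here at 1090.0 ± 38.6 TPM, while Slc7a11 was not called expressed. RefSeq promoter windows (GRCm38.p6, 250 bases before to 50 after a start, 300 in all) were therefore searched on both strands for TGATGNAA, the core of that element. Windows were found for 45 of the 63 members, fewer than 80%, so no share over the members is given. The motif occurred in 3.97% of all 32851 windows and, counted by gene, in 4.51% of the 27025 genes with a window. It was found for 4 members, Slc7a11, Slc7a7, Slc1a4 and Slc6a21. These 4 members had means of 0.817, 1.36, 53.7 and 0.0153 TPM. An upstream stretch of each of the light chains Slc7a11 and Slc7a7, both near the expression threshold, is shown. Slc7a11 is a known target of Atf4, and both genes hold the motif more than once. For Slc7a7 the stretch at the farther of its matching starts is shown, and that at the nearer start is not. Capitals mark the matches, read 5′ to 3′ on the strand of the gene, and TTGCATCA is the motif on the other strand. The Slc7a11 stretch is chr3:50443633-50443699 and the Slc7a7 stretch chr14:54418058-54418105, both on the minus strand.
Slc7a11: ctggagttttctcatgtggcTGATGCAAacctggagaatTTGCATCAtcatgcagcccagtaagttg
Slc7a7: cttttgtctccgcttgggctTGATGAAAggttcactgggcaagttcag

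Slc7a11 holds the motif in both orientations, from 66 to 59 and from 47 to 40 bases before the start. The Slc7a7 match shown lies from 141 to 134 bases before the farther of its 2 matching starts, and another match spans that start, the same site that lies from 243 to 236 bases before the nearer start. The window at the farther Slc7a7 start (54417895 to 54418194) lies outside the annotated gene, which ends at 54417780. Its transcribed end was not found in a GENCODE M21 transcript of Slc7a7, while that of the nearer window was. In Slc1a4 a match spans the start, and in Slc6a21 it lies from 28 to 21 bases before it. A match describes the letters only, and says nothing of binding in these cells.

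Among the cationic transporters, Slc7a1, the general importer of arginine and lysine, led at 160.0, 140.3, 152 and 158 TPM (chromosome 5, 148327410 to 148399904). Slc7a3, a related importer best known from brain and carried on the X chromosome (101079210 to 101086020), was also expressed, at 26.8, 29.8, 31.6 and 34.0. Replicate 1 was the lowest for Slc7a3 and replicate 4 the highest, and every library lay below all those of Slc7a1. Slc7a2, the cationic importer linked to arginine use by macrophages, had 1, 0, 9 and 5 counts, a mean of 0.0226 TPM. With Slc7a2 set to its floor of 3 counts per library where it was lower, Slc7a1 exceeded it by 12.30 ± 0.51 on the log2 scale (exact sign-flip, adjusted p = 0.139). The orphan member Slc7a4 stood at 0.597, 0.583, 0.360 and 0.367 TPM, and Slc7a14 had 0 counts.

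Slc1a5, the sodium-dependent exchanger of glutamine, alanine and serine, was the second most abundant member (chromosome 7, 16781340 to 16798274). It stood at 347, 333, 347 and 361 TPM and was above Slc3a2 in 4 of 4 libraries, by 0.08 ± 0.03 on the log2 scale. Slc1a4, its paralogue for serine, alanine and cysteine, lay at 52.8, 50.4, 55.9 and 55.7. Their levels did not overlap in any library. Slc1a5 was 6.47-fold higher on average, and 6.20 to 6.60-fold in single libraries (exact sign-flip, adjusted p = 0.139).

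The glutamate carriers of the Slc1 family, which clear the transmitter in brain, were all below the threshold. Slc1a3 stood at 0.0835, 0.0951, 0.287 and 0.0933 TPM, Slc1a2 at 0.163, 0.102, 0.106 and 0.0708, and Slc1a1 averaged 0.0861 ± 0.0473. Replicate 3 was the highest for Slc1a3, with 53 counts against 9 to 14 in the others. Slc1a6 and Slc1a7 had 0 counts, against floors of 0.110 and 0.0707 TPM in the library where 3 counts weigh most; such floors cover counting error only.

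The Slc38 family had the most expressed members, 6 of 11. Slc38a2 and Slc38a1, sodium-coupled importers of glutamine, alanine and other small neutral amino acids, lie 44481 bases apart on chromosome 15, on the same strand and with no protein-coding gene between them. Slc38a2 stood at 181, 222, 191 and 197 TPM and Slc38a1 at 188, 171, 176 and 176. Slc38a2 was above Slc38a1 in 3 of 4 libraries, by 0.15 ± 0.18 on the log2 scale (exact sign-flip, p and adjusted p = 0.25), so their order was not resolved. The order turned when CPM, which ignores length, took the place of TPM, at -0.71 on the log2 scale. Slc38a4, the next family member along the same chromosome, had 4 counts in replicate 2 and 0 elsewhere. With its floor of 3 counts in the libraries where it was lower, Slc38a2 exceeded it by 11.95 ± 0.35 on the log2 scale (exact sign-flip, adjusted p = 0.139).

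Slc38a10, a less studied member, stood at 108, 90.2, 94.5 and 103 TPM. Slc38a7, which exports glutamine from lysosomes, followed at 26.3, 24.7, 24.1 and 22.4. Slc38a9, the lysosomal arginine carrier that signals to mTORC1, lay at 3.62, 4.51, 4.24 and 3.80, and Slc38a6 at 1.51, 2.26, 2.15 and 1.86. Both of the latter were thus present at low levels in every library. Slc38a3 and Slc38a8 had 5 and 2 counts in replicate 2 and 0 elsewhere, and Slc38a5 and Slc38a11 had 0 counts in all libraries.

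All 3 members of the Slc43 family were expressed, at levels that differed widely. Slc43a3, known as a carrier of purine bases rather than amino acids, stood at 129, 133, 139 and 143 TPM. The leucine and phenylalanine carriers Slc43a2 and Slc43a1 lay at 28.4, 25.4, 25.6 and 28.8 and at 5.06, 4.03, 5.09 and 3.66. Slc43a3 exceeded Slc43a1 30.8-fold on average, although the genes lie on the same strand of chromosome 2 with 1 protein-coding gene between them (exact sign-flip, adjusted p = 0.139). Slc7a5, which shares substrates with Slc43a2, was 34.1-fold above it (exact sign-flip, adjusted p = 0.139).

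Of the proton-coupled Slc36 carriers, Slc36a4 and the lysosomal Slc36a1 were expressed, at 16.6, 17.2, 16.0 and 17.2 TPM and at 9.39, 9.36, 8.16 and 8.34. Next to Slc36a1 on chromosome 11 lies Slc36a2 with 0 counts, and beyond it Slc36a3 at 0.806, 0.640, 0.646 and 0.647. Slc36a3 rests on 23 to 33 counts per library, and none of its values reached the threshold.

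In the Slc6 family 3 of 21 members were expressed, and none of them carries a monoamine. Slc6a6, the taurine carrier, was abundant at 163, 156, 145 and 160.2 TPM (chromosome 6, 91684053 to 91759066). Slc6a9, a glycine carrier, stood at 16.2, 22.7, 19.7 and 23.7, and the X-linked creatine carrier Slc6a8 near the threshold at 1.28, 1.71, 1.77 and 2.05. Slc6a6 exceeded Slc6a8 92.7-fold on average (exact sign-flip, adjusted p = 0.139). Replicate 1 was the lowest for Slc6a9 and Slc6a8 but the highest for Slc6a6.

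The rest of the Slc6 family was scarce. Slc6a13, a carrier of GABA and taurine, stood at 0.382, 0.419, 0.0318 and 0.183 TPM, from 2 to 21 counts. Its neighbour Slc6a12, 5343 bases away, had 2, 6, 0 and 4 counts. The dopamine carrier Slc6a3 had 11 counts in replicate 2 and 0 elsewhere, and Slc6a19, a neutral amino acid carrier of gut and kidney, 13 counts in replicate 3 and 1 in replicate 2. Slc6a11 had 0, 1, 6 and 5 counts, Slc6a21 had 3 in replicate 1, and the remaining 12 members of the family had 0 counts in all libraries.

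**Figure D3:**
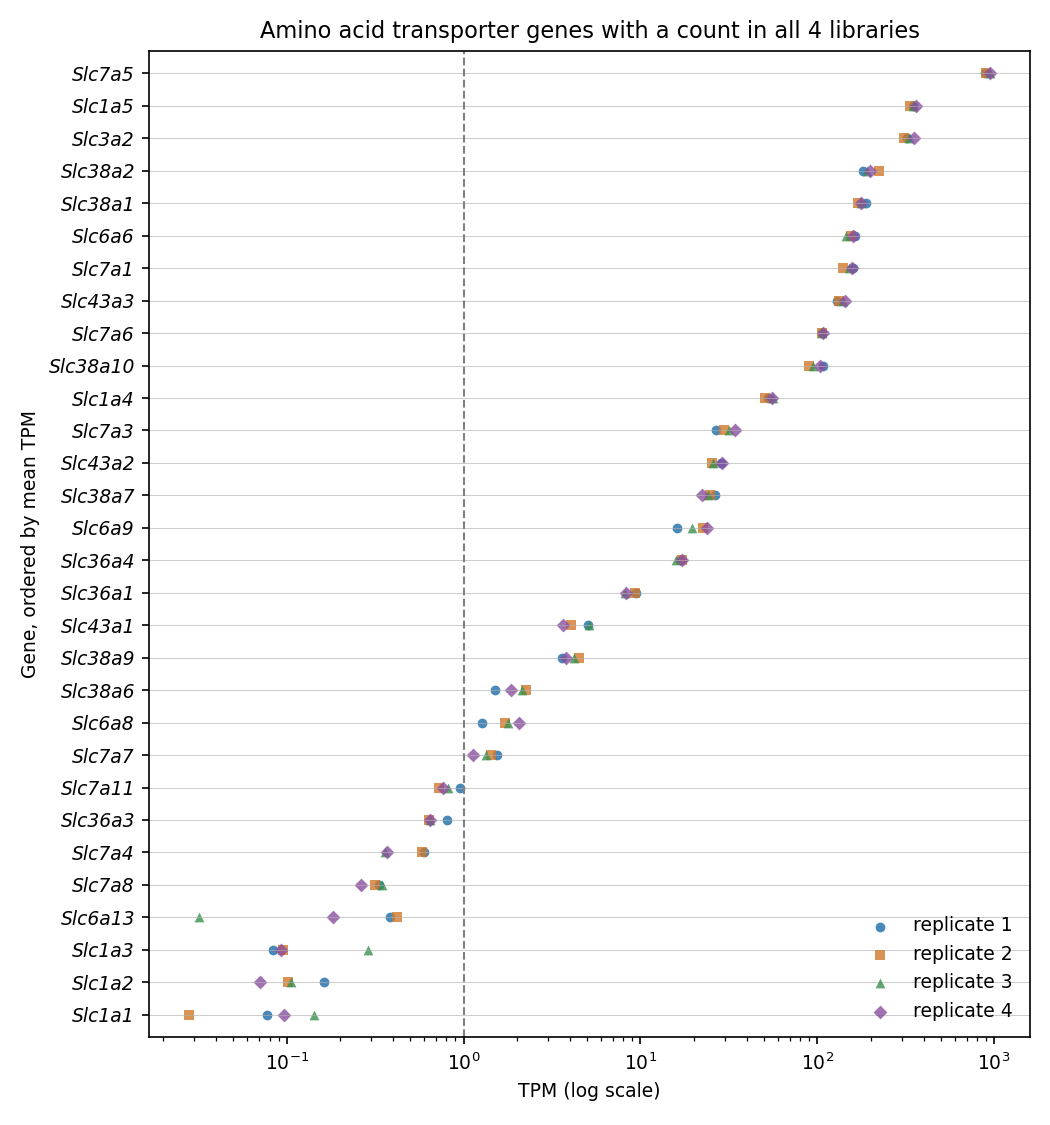
TPM on a log axis of the 30 members with at least 1 count in each of the 4 libraries, ordered by mean, with 1 symbol per library and a dashed line at the expression threshold of 1. Slc7a5 lies at 892 to 944 in the 4 libraries, and the lowest gene shown, Slc1a1, ranges from 0.0282 to 0.142.

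In the genome, 10 pairs of members lay next to each other with no more than 100000 bases between them. Both genes were expressed in 2 pairs, Slc38a1 with Slc38a2 and Slc43a1 with Slc43a3. Neither was in 7 pairs, all but Slc36a3 with Slc36a2 from the Slc6 family, and in the pair of Slc36a2 and Slc36a1 only the latter was.

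The order of levels could be read from the libraries for part of the series. Among the 21 steps between neighbours in the order of the 22 expressed members, 12 ran the same way in all 4 libraries and 9 did not. Slc7a5, Slc1a5, Slc3a2 and Slc38a2 kept this order in 4 of 4 libraries. All libraries share the same exon lengths, so agreement between them does not cover the choice of length. With the length of the longest transcript, Slc7a5, Slc1a5 and Slc3a2 still led in this order, but Slc38a2 averaged 143 TPM. Slc7a1 at 178, Slc43a3 at 171, Slc6a6 at 155 and Slc38a1 at 149 then lay above Slc38a2. Slc6a6 and Slc7a1 changed places between libraries, as did Slc7a6 and Slc38a10, Slc7a3 and Slc43a2, and Slc43a1 and Slc38a9, the last pair in 2 of 4. The coefficient of variation of TPM over the libraries had a median of 6.61% among expressed members, compared with 6.52% among all expressed genes. It ran from 0.693% for Slc7a6 to 18.8% for Slc6a8.

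Each library was then set against the other 3, which compares libraries and not conditions. With edgeR's quasi-likelihood test and Benjamini-Hochberg adjustment over 12917 genes, 28 of the 63 members passed the filter on low counts, and 0 of the 28 were called at an adjusted p of 0.05 in any of the 4 comparisons. Over all genes tested, 9 were called for replicate 1 (0.0697%) and 3 for replicate 3 (0.0232%), with 0 (0%) for each of the other two. At an unadjusted p of 0.05, edgeR gave 3, 2, 1 and 0 members in replicates 1 to 4, against 9.31%, 6.78%, 2.31% and 2.49% of all genes tested. At the same unadjusted p limma voom gave 3, 3, 1 and 0 members against 8.28%, 6.91%, 3.04% and 2.41% of all genes, and DESeq2 gave 3, 3, 0 and 0 against 7.17%, 5.55%, 1.63% and 1.66%. The single library is taken to vary as much as the other 3, and no comparison allowed for the difference in Xist and Ddx3y.

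The member with the smallest unadjusted p was Slc6a9, the glycine carrier, in replicate 1 (0.000741 in edgeR). It was lower there than in each of the other 3 libraries, by a log2 difference of -0.45 (SE 0.12), with an adjusted p of 0.15 in edgeR. Leaving out replicate 2, 3 or 4 gave log2 differences of -0.43, -0.53 and -0.40 in edgeR. Testing without the filter on low counts gave -0.45, limma voom -0.44 and DESeq2 -0.45. Without replicate 2, replicate 1 was the only library with high Xist, set against the libraries with Ddx3y. A difference of this library and one that goes with Xist cannot then be told apart. Slc7a3 was lower in replicate 1 by a log2 difference of -0.25 (SE 0.11), and Slc38a2 higher in replicate 2 by 0.23 (SE 0.08), with adjusted p of 0.45 and 0.67 in edgeR. Slc38a10 was highest in replicate 1, with a log2 difference of 0.16 (SE 0.08, adjusted p 0.54 in edgeR), and lowest in replicate 2, with -0.17 (SE 0.08, adjusted p 0.72). With all 4 libraries and the filter on low counts, none of these passed the threshold.

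**Figure D4:**
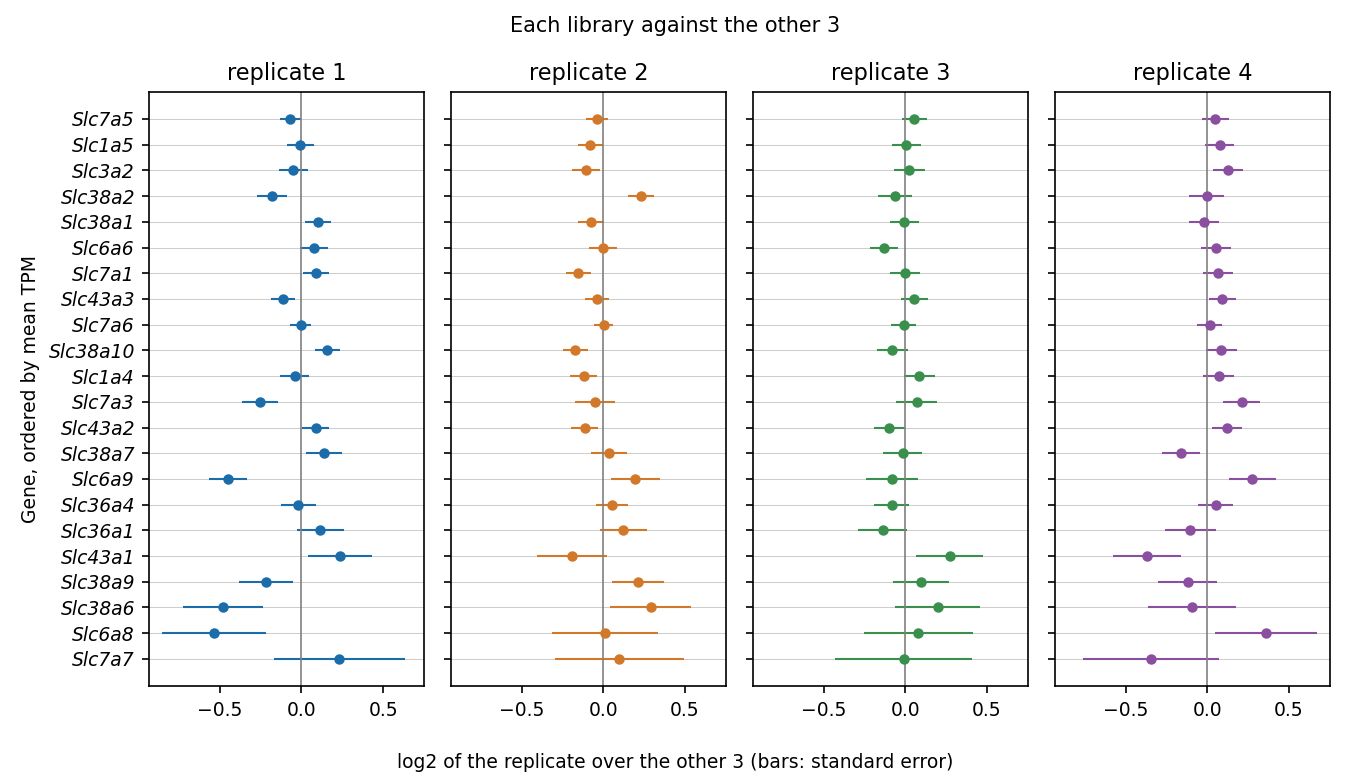
Log2 difference of each replicate from the other 3 in edgeR for the 22 expressed members, ordered by mean TPM, with bars for the standard error. Slc6a9 in replicate 1 lies at -0.45 with a standard error of 0.12, and the bars widen toward the least abundant genes at the bottom.

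Genes of the pathway of amino acid sensing by mTORC1 were expressed throughout. All 31 genes found of the mTORC1 sensing list were expressed, with a median of 28.3 TPM beside 28.6 over all expressed genes. For this list and those that follow, the share expressed among all protein-coding genes was 47.2%. Sec13 and Seh1l, subunits shared by the activating GATOR complex and the nuclear pore, stood at 194 ± 5.07 and 125 ± 5.19, and the GTPase Rraga, which recruits mTORC1 to lysosomes, at 186 ± 16.5. Lamtor5, part of the scaffold that holds these GTPases on lysosomes, stood at 141 ± 17.6. The leucine sensor Sesn2 reached 85.1 ± 5.37 and the arginine sensor Castor1 11.3 ± 0.686. Lowest was Rragb at 4.36 ± 0.582.

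In the amino acid stress list 16 of 17 genes were expressed, with a median of 38.3 TPM. Atf4 led, followed by the mTORC1 inhibitor Ddit4 at 503 ± 32.9 and the asparagine synthetase Asns at 228 ± 14.5, and Vldlr was lowest at 1.09 ± 0.301 and below 1 in 2 libraries. Eif2ak4, the kinase that senses uncharged tRNA, stood at 26.8 ± 0.445. These lists, like the one that follows, describe levels in 1 group and not a response.

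Enzymes that use imported amino acids were expressed in 22 of 26 cases. Odc1, which makes the polyamine putrescine from ornithine, stood at 1045 ± 74.0 TPM, the serine hydroxymethyltransferase Shmt2 at 873 ± 68.5 and Mat2a, which makes S-adenosylmethionine, at 342 ± 19.4. The leucine transaminase Bcat1 lay at 113 ± 6.77. Arg1, Ido1 and Tdo2, enzymes of arginine and tryptophan breakdown, had 0 counts, and Arg2 had 3 in all. Nos2 and Gatm, which also act on arginine, were expressed at 17.8 ± 2.54 and 14.2 ± 1.56.

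Carriers of amino acids and peptides outside the 7 families were expressed in 12 of 20 cases. The mitochondrial carriers Slc25a39, Slc25a12 and Slc25a22 led at 195 ± 11.8, 48.9 ± 2.04 and 43.6 ± 3.37 TPM, and the aromatic amino acid carrier Slc16a10 stood at 20.5 ± 1.36. The lysosomal exporters Ctns of cystine and Pqlc2 of cationic amino acids reached 8.23 ± 0.620 and 7.69 ± 1.26.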

How the data were processed

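The authors deposited raw fragment counts for each gene from featureCounts 1.4.6-p4, run on mm10 alignments with GENCODE M13, per the file headers. Counting was paired, reverse-stranded and over exons, and the recorded command does not ask for multi-mapping fragments, which can lower the counts of genes with a close paralogue. For the aligner, its version was not found in the labels or headers used. Symbols came from GENCODE M21 (50376 of 50600 genes). No exon of a member shares bases with another gene on the same strand. TPM was computed from the counts and the deposited exon length. The members, the lists and the named genes were chosen with earlier results of these data known. Values are given in every library for the 20 highest members, those from 0.5 to 2 TPM and the 5 tested members with the largest coefficient of variation, and in lists for the 3 highest and the lowest, with a few others chosen after their values were seen. Some genes of the lists are not reported here by name. Libraries were compared with edgeR 4.0.16 (TMM, filterByExpr for 1 group, quasi-likelihood test), limma 3.58.1 and DESeq2 1.42.0, and the edgeR step was tested on simulated data. Other scalings, filters, thresholds, lengths and left-out libraries were tried. Samples carry replicate numbers 1 to 4 from the labels.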

Additional observations from a re-analysis of the deposited data

Results flagged for a closer look

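Of 47 results tested for a library apart from the rest, 30 of them levels of single members, 2 had 1 library whose gap to the nearest other, as a share of the range, passed Dixon's critical value for 4 samples, which chance passes in about 1 of 20. The highest library of Slc36a3 was replicate 1 at 0.806 TPM, from 24 counts, against 0.640 to 0.647 in the others. The highest library of Slc1a3 was replicate 3 at 0.287 TPM, from 53 counts, against 0.0835 to 0.0951. In edgeR Slc1a3 was higher in replicate 3 by a log2 difference of 1.65 (SE 0.51), with an adjusted p of 0.99985.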

How the results depend on the processing

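The count of 22 expressed members was 24 at a TPM threshold of 0.5, 17 at 5, 19 by FPKM at 1, and 22 with the other settings tried and without any single library. By FPKM 2 members averaged above 100. FPKM values were lower than TPM, with Slc7a5 at 268 against 920, so the same cut-off is stricter in FPKM. The sign of the log2 ratio held in 9 of the 10 pairs. Slc38a2 over Slc38a1 was -0.71 in CPM and -0.067 with the length of the longest transcript. That length, a setting chosen after seeing the data, moved 15 of 24 named levels by more than 1 SD. With 1 added to each TPM, log2 ratios over scarce genes shrank. That of Slc7a1 over Slc7a2 was 7.23 in place of 12.30, and that of Slc38a2 over Slc38a4 7.61 in place of 11.95. Calls over all genes in replicates 1 to 4 became 105, 60, 35 and 16 without the filter on low counts, and 16, 19, 8 and 0 with DESeq2, and 5 in replicate 3 with limma voom. Leaving out 1 library gave 23 to 341 calls in replicate 1 (341 without replicate 4), 3 to 52 in replicate 2 (52 without replicate 1), 16 to 21 in replicate 3 and 2 to 9 in replicate 4 (9 without replicate 3). Slc6a9 was called in replicate 1 without the filter and without replicate 2, 3 or 4, settings in which calls over all genes rose too. Its log2 difference was -0.45 without the filter, and -0.43, -0.53 and -0.40 without replicate 2, 3 and 4. Each of these fits sets 1 library against the others. The median biological coefficient of variation of tested members, 0.0748, was 0.167 without the filter, where 42 members were tested in place of 28. Over all genes tested the median rose more, from 0.0734 to 0.250. Apart from the added genes tested, the cause was not tested. Levels below about 1 TPM rest on few counts, apart from that of Slc7a11 with 160 to 247 per library.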

Other observations

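Slc7a6, singled out after its value was seen, had a biological coefficient of variation of 0.0479 in edgeR, at percentile 0.031 of the 12917 genes tested, while the abundant Slc7a5 lay at percentile 51.8. Slc15a1 and Slc15a2, peptide carriers outside the 7 families that were also picked after their values were seen, varied between libraries. Slc15a1 stood at 1.17, 0.186, 0.873 and 0.213 TPM in replicates 1 to 4, and Slc15a2 at 0.968, 0.229, 0.0690 and 0.388. No test was run on them.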
